A study of Arabidopsis thaliana with 4 samples.

Results

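A set of 10 aquaporin genes was followed in funiculi, the stalks that connect developing seeds to the fruit, of Arabidopsis thaliana. They were chosen by name and locus, with earlier results of these data known. The set held 7 genes of plasma membrane intrinsic proteins: PIP1-1, PIP1-2, PIP1-3, PIP1-4, PIP2-1, PIP2-2 and PIP2-7. Such names are also written with a semicolon, as PIP1;1. It also held 3 genes of tonoplast intrinsic proteins (TIP1-1, TIP1-2 and TIP2-1). The 10 genes are part of the 37051 loci of the count table and of 35 aquaporin genes. All 10 were read in every library and all 10 passed the filter on low counts, as did 18092 loci in all. The groups were wild-type plants of the Columbia ecotype and seedstick (stk) mutants, which lack normal function of a MADS-domain regulator of ovule and seed development. Both were grown at 22 °C with 16 h of light and 8 h of darkness and were sampled at stage 17, after fertilisation. Each genotype had 2 biological replicates, and each library was made from the polyadenylated RNA of 100 funiculi. The labels name neither the stk allele nor the number of plants that were pooled.

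Aquaporins are membrane channels for water and, in some members, for small uncharged solutes. PIPs sit mainly in the plasma membrane and set how fast water enters and leaves a cell. TIPs sit mainly in the vacuole membrane, the tonoplast, where they let the vacuole buffer the water content of the cell. PIP1 proteins are known, from work in maize, to depend on PIP2 partners to reach the plasma membrane, and the channels assemble as tetramers. The funiculus carries the vascular strand through which water and nutrients reach the seed, and all of the seed's supply passes through it.

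The 10 genes share a hallmark of the aquaporin family, which their names already imply. The longest annotated coding sequence of each held 2 in-frame runs of codons for asparagine, proline and alanine, the NPA boxes, which meet in the middle of the pore. The stretch around the second box is shown because the residue after it belongs to the selectivity filter and separates the genes. The sequences are those of RefSeq on TAIR10.1, given 5′ to 3′ on the coding strand, each inside 1 coding exon. Capitals mark the 9 bases of the second NPA box and the codon that follows it. PIP2-3, which is not among the 10, is added as the closest relative of PIP2-2.
PIP1-1, chr3:22734843-22734887 (plus strand): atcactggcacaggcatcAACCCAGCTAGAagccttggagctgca
PIP1-2, chr2:18911439-18911483 (plus strand): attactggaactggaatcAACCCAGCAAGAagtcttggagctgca
PIP1-3, chr1:226207-226251 (minus strand): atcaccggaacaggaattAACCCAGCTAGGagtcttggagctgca
PIP1-4, chr4:186369-186413 (minus strand): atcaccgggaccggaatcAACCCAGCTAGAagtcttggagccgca
PIP2-1, chr3:19804152-19804196 (minus strand): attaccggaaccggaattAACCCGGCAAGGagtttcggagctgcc
PIP2-2, chr2:15613878-15613922 (minus strand): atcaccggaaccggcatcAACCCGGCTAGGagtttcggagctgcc
PIP2-3, chr2:15618648-15618692 (plus strand): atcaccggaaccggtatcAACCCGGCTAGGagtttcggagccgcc
PIP2-7, chr4:16709665-16709709 (plus strand): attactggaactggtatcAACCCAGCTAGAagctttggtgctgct
TIP1-1, chr2:15446157-15446201 (plus strand): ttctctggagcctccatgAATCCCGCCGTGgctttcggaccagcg
TIP1-2, chr3:9722908-9722952 (minus strand): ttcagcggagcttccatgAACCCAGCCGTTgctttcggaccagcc
TIP2-1, chr3:5506606-5506650 (plus strand): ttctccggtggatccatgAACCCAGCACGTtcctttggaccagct
The codon after the box is AGA or AGG in all 7 PIP genes and CGT in TIP2-1, all of which encode arginine. It is GTG in TIP1-1 and GTT in TIP1-2, which encode valine. Each of the 7 PIP genes has 4 coding exons, whereas TIP1-1 and TIP1-2 have 2 and TIP2-1 has 3.

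Close relatives within the family limit how well reads can be assigned. PIP2-2 and PIP2-3 were identical at 94.8% of 858 aligned coding bases, with an unbroken shared run of 242 bases, and 27.1% of all 50-base windows of the PIP2-2 coding sequence occurred unchanged in PIP2-3. The next closest pairs with at least 1 of the 10 genes were PIP1-1 with PIP1-2 (87.6% identical), PIP2-1 with PIP2-2 (86.2%) and PIP1-3 with PIP1-4 (85.2%). In those 3 pairs the longest shared runs were 41, 35 and 35 bases, and no 50-base window was shared. How the authors' counting treated reads that fit several genes is not given in the sources used here, so the values of PIP2-2 carry the largest uncertainty of this kind. Of the 10 genes, TIP2-1 alone overlaps annotated genes on the opposite strand, and the kit used gives no strand information.

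Library totals ranged from 4033589 to 12099218 counts, so that 3 counts stood for 0.246 to 0.774 CPM (read counts scaled to library size, here with TMM factors). The mutated gene STK was read at 372.5 and 553.9 CPM across wild-type replicates and at 236.9 and 324.9 CPM across stk replicates (edgeR adjusted p = 1), so its RNA was present in both genotypes, and the lesion itself was not checked. Replicates were far apart, with a biological coefficient of variation of 0.721 over all genes. Apart from that distance, the order of replicates 1 and 2 was the same in both genotypes for 58.9% of tested genes. Of the 10 aquaporins this held for 3. The RNA comes from whole funiculi, so a lower level can mean fewer cells of a type or less RNA per cell, and these cannot be told apart.

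In wild type every PIP gene had a higher mean level than every TIP gene. Set per kilobase of exon, PIP1-2 had the highest mean level, at 455.4 ± 168.0 CPM per kb (SD, n = 2), and ranked 113th of 37051 loci. PIP2-7 followed at 321.9 ± 162.9 CPM per kb and ranked 234th. Below them came PIP2-1, PIP1-4, PIP1-1, PIP1-3 and PIP2-2, at 168.0, 143.6, 113.9, 92.3 and 53.2 CPM per kb. The 3 TIP genes closed the order, with TIP1-1 at 25.1 ± 23.4, TIP1-2 at 10.9 ± 5.92 and TIP2-1 at 5.64 ± 0.297 CPM per kb. Of the 9 pairs of neighbours in this order, the wild-type values overlapped in 8, and TIP1-2 with TIP2-1 was the pair whose values did not. In stk the order was headed by PIP2-1 at 334.3 ± 40.9 CPM per kb (rank 239), ahead of PIP1-2 at 282.8 (rank 310) and PIP2-7 at 249.8 (rank 386), and TIP2-1 ranked 1766th where it had ranked 13549th in wild type. Both wild-type values of PIP1-2 lay above both values of each TIP gene, whereas those of PIP2-2 and TIP1-1 overlapped.

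**Figure D1:**
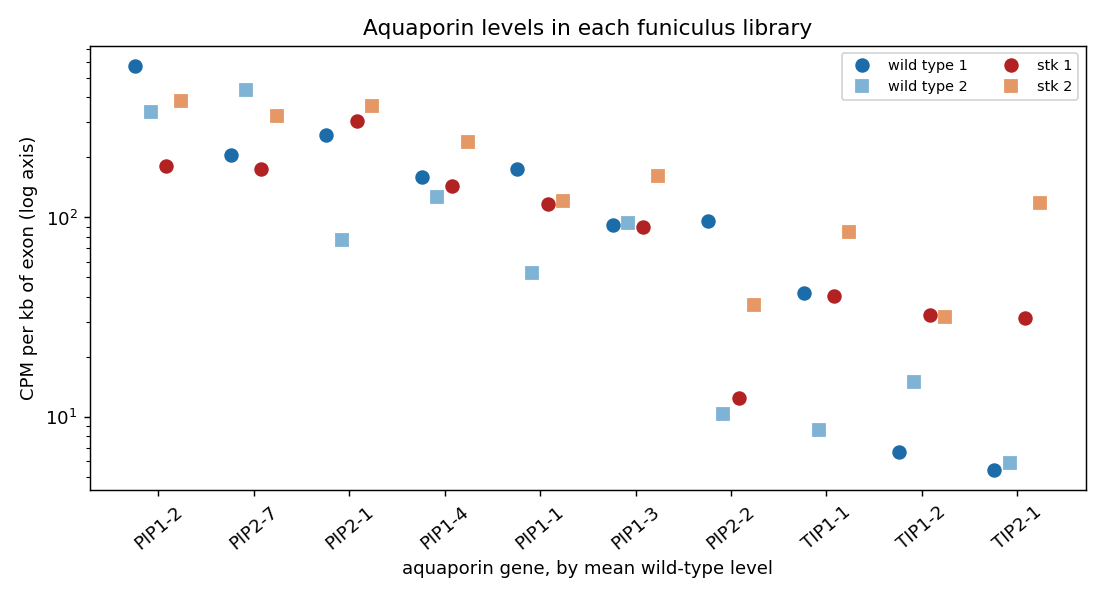
Level of each of the 10 genes in each library, in CPM per kb of exon on a log axis, with genes ordered by their mean in wild type. Blue marks are wild type and red or orange marks are stk, circles are replicate 1 and squares replicate 2. TIP2-1 is the gene with the widest gap between genotypes, from 5.43 and 5.85 in wild type to 31.3 and 117.6 in stk.

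Among the PIP1 genes no difference between genotypes passed the test. PIP1-1 (AT3G61430), a water channel of the plasma membrane, gave 272.2 and 82.1 CPM across wild-type replicates and 181.4 and 188.1 CPM across stk replicates. Both stk values lay between the wild-type values. PIP1-2 (AT2G45960), a leading PIP1 gene of leaves and roots, gave 917.0 and 537.5 CPM across wild-type replicates and 290.9 and 612.5 CPM across stk replicates. The lowest value was stk replicate 1 and the highest was wild-type replicate 1, with the other 2 libraries close together. PIP1-3 (AT1G01620) gave 141.2 and 144.9 CPM across wild-type replicates and 139.6 and 249.0 CPM across stk replicates. PIP1-4 (AT4G00430), known to carry hydrogen peroxide as well as water, gave 319.6 and 254.6 CPM across wild-type replicates and 288.0 and 476.7 CPM across stk replicates. In PIP1-3 and PIP1-4, stk replicate 2 alone stood above the other 3 libraries, which lay within a narrow band. The log2 fold changes (stk over wild type, with SE) were 0.06 ± 0.57 for PIP1-1, -0.69 ± 0.51 for PIP1-2, 0.44 ± 0.43 for PIP1-3 and 0.41 ± 0.43 for PIP1-4, all with an edgeR adjusted p of 1.

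The PIP2 genes went different ways, and none passed. PIP2-1 (AT3G53420), a main water channel that also serves guard cells and roots, gave 407.9 and 120.6 CPM across wild-type replicates and 480.3 and 571.4 CPM across stk replicates. Both stk values were above both wild-type values, though stk replicate 1 was near wild-type replicate 1. Its log2 fold change was 0.99 ± 0.59 (SE; edgeR adjusted p = 1). PIP2-2 (AT2G37170), known mainly from roots, gave 129.2 and 13.9 CPM across wild-type replicates and 16.8 and 49.2 CPM across stk replicates, with wild-type replicate 1 far above the rest and a log2 fold change of -1.10 ± 0.96. Without that library the value was 1.28, and with the counts of PIP2-3 added to those of PIP2-2 it was -0.12 ± 0.93. PIP2-7 (AT4G35100), whose delivery to the plasma membrane involves the syntaxin SYP121, gave 331.3 and 700.7 CPM across wild-type replicates and 280.8 and 520.1 CPM across stk replicates. In both genotypes replicate 2 was the higher, and the log2 fold change was -0.37 ± 0.52 (edgeR adjusted p = 1).

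TIP2-1 had the widest difference of the 10 genes, and all 3 TIP genes had positive fold changes. TIP2-1 (AT3G16240), formerly delta-TIP, a tonoplast channel that also passes ammonia, was counted 36 and 76 times in wild type and 144 and 1704 times in stk. These counts correspond to 6.46 and 6.96 CPM across wild-type replicates and to 37.2 and 139.8 CPM across stk replicates. The wild-type libraries were close together, the stk libraries differed more than 3-fold from each other, and the genotypes did not overlap. The log2 fold change was 3.72 ± 0.72 (SE). In edgeR it missed the threshold (adjusted p = 0.378, unadjusted p = 0.00094), as it did in limma-voom (adjusted p = 0.28), and it did pass DESeq2 (adjusted p = 0.000785). The opposite-strand neighbour AT3G16250, known as PnsB3, gave 8.79 and 16.8 CPM across wild-type replicates and 25 and 17.8 CPM across stk replicates. The other, AT3G03265, had at most 16 counts in any library.

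TIP1-2 (AT3G26520), once described as a salt-stress inducible TIP, gave 8.61 and 19.4 CPM across wild-type replicates and 41.8 and 40.8 CPM across stk replicates. The stk libraries nearly coincided and lay above both wild-type libraries. The log2 fold change was 1.55 ± 0.63 (SE; edgeR adjusted p = 1, unadjusted p = 0.041). TIP1-1 (AT2G36830), formerly gamma-TIP and typical of cells with a large vacuole, gave 51.5 and 10.6 CPM across wild-type replicates and 50.1 and 104.9 CPM across stk replicates. Wild-type replicate 1 and stk replicate 1 were level here, so the genotypes overlapped. The log2 fold change was 1.33 ± 0.75 (edgeR adjusted p = 1).

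The counts of calls among the 10 genes stand beside those over all genes here. edgeR called 0 of the 10 genes, against 0.00553% of all tested genes, which is 1 gene, the root meristem growth factor gene RGF9. Limma-voom also called 0 of 10 (0.205% of all genes) and DESeq2 called 1 of 10, TIP2-1 (0.884% of all genes). TIP2-1 and TIP1-2 were higher in stk with an unadjusted edgeR p under 0.05, which is 2 of 10 where 2.22% of the tested genes were. In the other direction it was 0 of 10, where 1.14% were. Both stk values lay above both wild-type values in 3 of the 10 genes, PIP2-1, TIP1-2 and TIP2-1, against 15.9% of all genes. Both lay below in 0 of the 10, against 16.6%. The fold change was positive in 7 of the 10, against 45.8% of all genes, with a median log2 fold change of 0.43 over the 10 and -0.07 over all tested genes.

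The call of TIP2-1 depended on which loci entered the test, and the size of the TIP fold changes on which libraries did. In edgeR without the filter on low counts, TIP2-1 passed (adjusted p = 3.12e-07), in a fit that called 1.17% of 23452 loci. In that fit the SE of PIP2-2 was 0.53 and that of PIP2-3 was 0.48, against 0.96 and 1.06 with the filter. Both genes had replicates far apart, so this fit weighed a gene's own replicate spread less, and its p-values are not read as stronger evidence. Without wild-type replicate 1, TIP2-1 (adjusted p = 0.00704) and TIP1-1 (log2 fold change 2.89, adjusted p = 0.0381) passed, in a fit that called 1.01% of loci. Without stk replicate 1, TIP2-1 passed (log2 fold change 4.40, adjusted p = 0.0198) where 0.0253% of loci did. Without stk replicate 2 its log2 fold change was 2.46, and it did not pass (adjusted p = 0.3). Each fit without a library leaves 1 library in a genotype, so that genotype's spread does not enter the p-value. Passing or not passing in these fits is therefore not read as evidence. For TIP1-1, wild-type replicate 1 was at 51.5 CPM, level with stk replicate 1 at 50.1 CPM. Without it, wild-type replicate 2 at 10.6 CPM remained. Over the 4 fits that leave out 1 library, the sign held for 5 genes, PIP1-2, PIP2-1, TIP1-1, TIP1-2 and TIP2-1. It turned in at least 1 fit for the other 5, PIP1-1, PIP1-3, PIP1-4, PIP2-2 and PIP2-7.

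**Figure D2:**
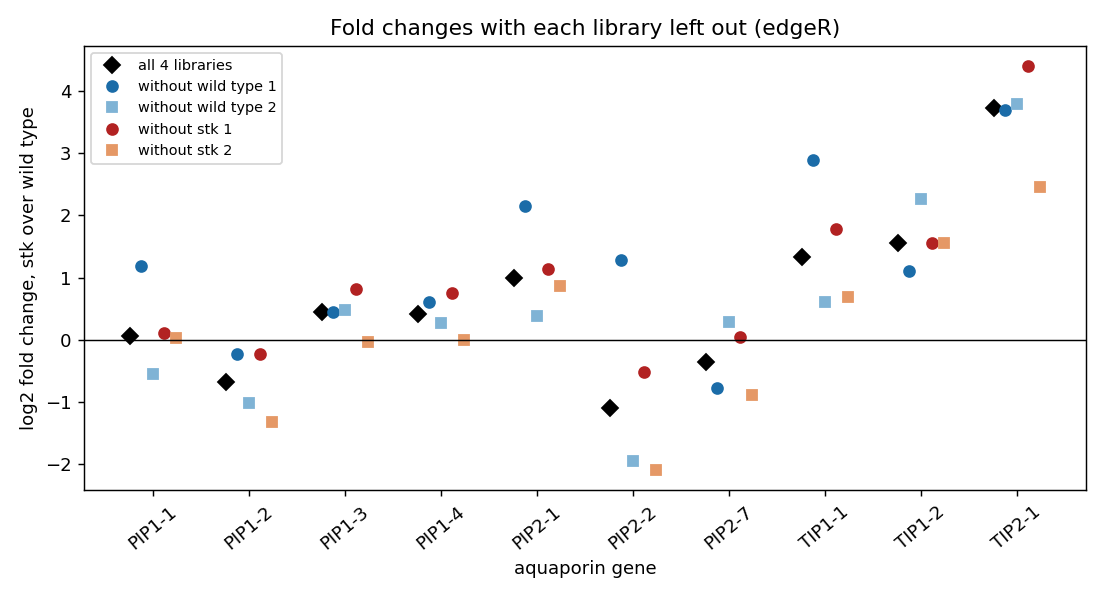
Log2 fold change (stk over wild type, edgeR) of each of the 10 genes with all 4 libraries (black diamonds) and with each library left out (coloured marks). TIP2-1 stayed between 2.46 and 4.40, while PIP2-2 ranged from -2.09 to 1.28.

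Summed over the genes, the PIP level overlapped between the genotypes, and the TIP level was higher in both stk libraries. The 7 PIP genes summed to 2518.4 and 1854.2 CPM across wild-type replicates and to 1677.8 and 2667.0 CPM across stk replicates. The wild-type values lay inside the range of the stk values, and the log2 ratio of means was -0.009. The 3 TIP genes summed to 66.6 and 37.0 CPM across wild-type replicates and to 129.0 and 285.5 CPM across stk replicates, a log2 ratio of means of 2.001. Both stk sums were above both wild-type sums, and a two-sided exact permutation test gave p = 0.333, the smallest p that 2 against 2 libraries allow.

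The balance between both membrane classes does not depend on how libraries are scaled. PIP counts made up 97.4% and 98.0% of the counts of the 10 genes in wild type, and 92.9% and 90.3% in stk, so the TIP share was 2.27% ± 0.438 (SD, n = 2) in wild type and 8.41% ± 1.79 in stk. The groups did not overlap, with the same exact permutation p of 0.333. Divided by exon length, the PIP share was 96.7% and 97.5% in wild type and 90.8% and 87.4% in stk.

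The leading gene was not the same in every library. Per exon length, PIP1-2 held the largest share of the 10 genes in wild-type replicate 1 (35.5%), PIP2-7 in wild-type replicate 2 (37.6%), PIP2-1 in stk replicate 1 (27.0%) and PIP1-2 in stk replicate 2 (20.6%). TIP2-1 held 0.336% and 0.503% in wild type and 2.77% and 6.32% in stk. PIP1-4 was the steadiest of the PIP genes, with 9.89% and 10.9% in wild type and 12.7% and 12.8% in stk.

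**Figure D3:**
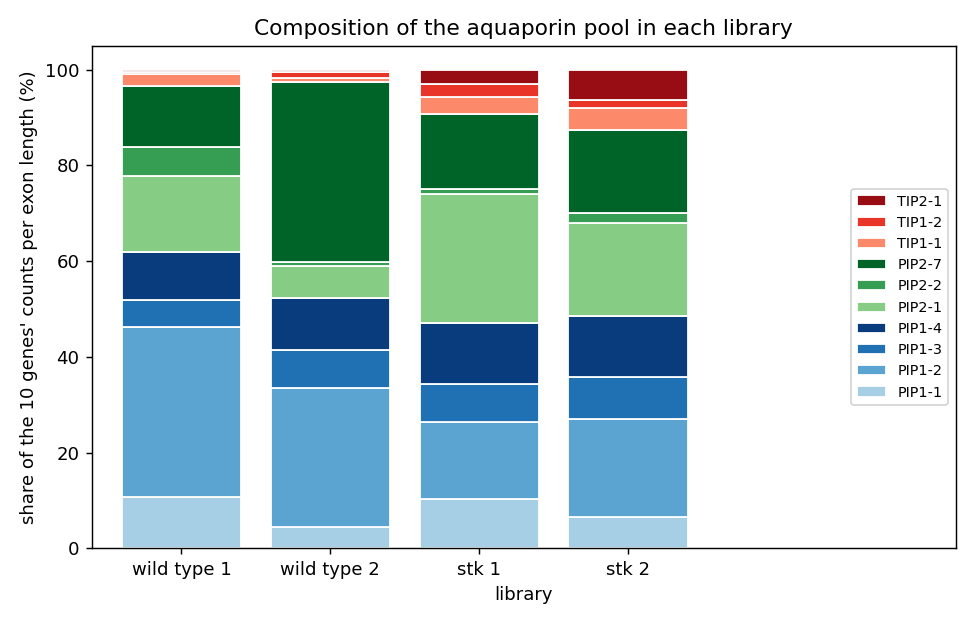
Share of each gene among the counts of the 10 genes, divided by exon length, in each of the 4 libraries (each bar sums to 100%). Blue segments are PIP1 genes, green PIP2 genes and red TIP genes, and the red part is larger in both stk libraries, where TIP2-1 holds 2.77% and 6.32%.

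Profiles over the 4 libraries were compared by the Euclidean distance between log2 CPM values centred on each gene's mean. The closest pair of the 10 was PIP1-3 with PIP1-4, at a distance of 0.269, followed by PIP2-1 with TIP1-1 (0.773) and PIP1-1 with PIP2-1 (0.946). The farthest pair was PIP2-2 with TIP2-1, at 4.586. Among 5045 other genes whose mean level was 50 CPM or more, those nearest to the mean profile of the 10 were AT2G16890, annotated as a UDP-glycosyltransferase (0.094), AT4G27657, of unknown function (0.116), NUDT12, a nudix hydrolase (0.150), SPL2, a squamosa promoter binding protein-like factor (0.241), and AT1G68810, a bHLH factor (0.265). With 4 libraries such likeness is a description.

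The promoters of the TIP genes are shown because all 3 genes had positive fold changes, a choice made with those values known. Each is the 250 bases before the annotated gene start in RefSeq on TAIR10.1, given 5′ to 3′ on the strand of the gene, and capitals mark matches to ACGTG, the core of abscisic acid response elements, on either strand.
TIP1-1, chr2:15445044-15445293 (plus strand): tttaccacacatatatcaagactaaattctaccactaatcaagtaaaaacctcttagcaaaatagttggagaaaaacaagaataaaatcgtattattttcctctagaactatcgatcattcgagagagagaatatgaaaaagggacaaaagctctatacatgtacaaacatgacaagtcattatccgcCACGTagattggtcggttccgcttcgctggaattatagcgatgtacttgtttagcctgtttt
TIP1-2, chr3:9723905-9724154 (minus strand): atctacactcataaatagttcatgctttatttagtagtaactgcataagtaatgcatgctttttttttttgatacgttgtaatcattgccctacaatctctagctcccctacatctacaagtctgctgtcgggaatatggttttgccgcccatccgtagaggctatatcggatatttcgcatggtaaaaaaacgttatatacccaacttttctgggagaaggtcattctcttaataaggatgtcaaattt
TIP2-1, chr3:5505110-5505359 (plus strand): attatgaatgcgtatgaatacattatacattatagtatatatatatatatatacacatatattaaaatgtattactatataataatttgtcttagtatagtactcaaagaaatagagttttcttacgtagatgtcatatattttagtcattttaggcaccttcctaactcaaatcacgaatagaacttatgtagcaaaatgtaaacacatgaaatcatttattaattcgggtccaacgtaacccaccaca
The CArG box, the motif of MADS-box proteins (CC, then 6 letters that are A or T, then GG, on either strand), was found in 0 of the 10 windows, against 2.77% of 17567 promoters of tested protein-coding genes. ACGTG was found in 1 of the 10, in TIP1-1, against 23.1% of those promoters. These counts say only which letters are in the windows.

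The other 25 aquaporins were called by edgeR in 0 cases, by DESeq2 in 1 and by limma-voom in 0, where these tools called 0.00553%, 0.884% and 0.205% of all tested genes. Of the 25, 15 were tested, 8 with a positive and 7 with a negative fold change and a median log2 fold change of 0.43. Of these 15, edgeR gave 3 higher and 2 lower at an unadjusted p under 0.05, where 2.22% and 1.14% of all tested genes were. In 3 of the 15 both stk values lay above both wild-type values and in 3 below, where 15.9% and 16.6% of all tested genes did, so the counts without overlap were near those over all genes. A count of 0 in every library was recorded for 6 of the 25.

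**Figure D4:**
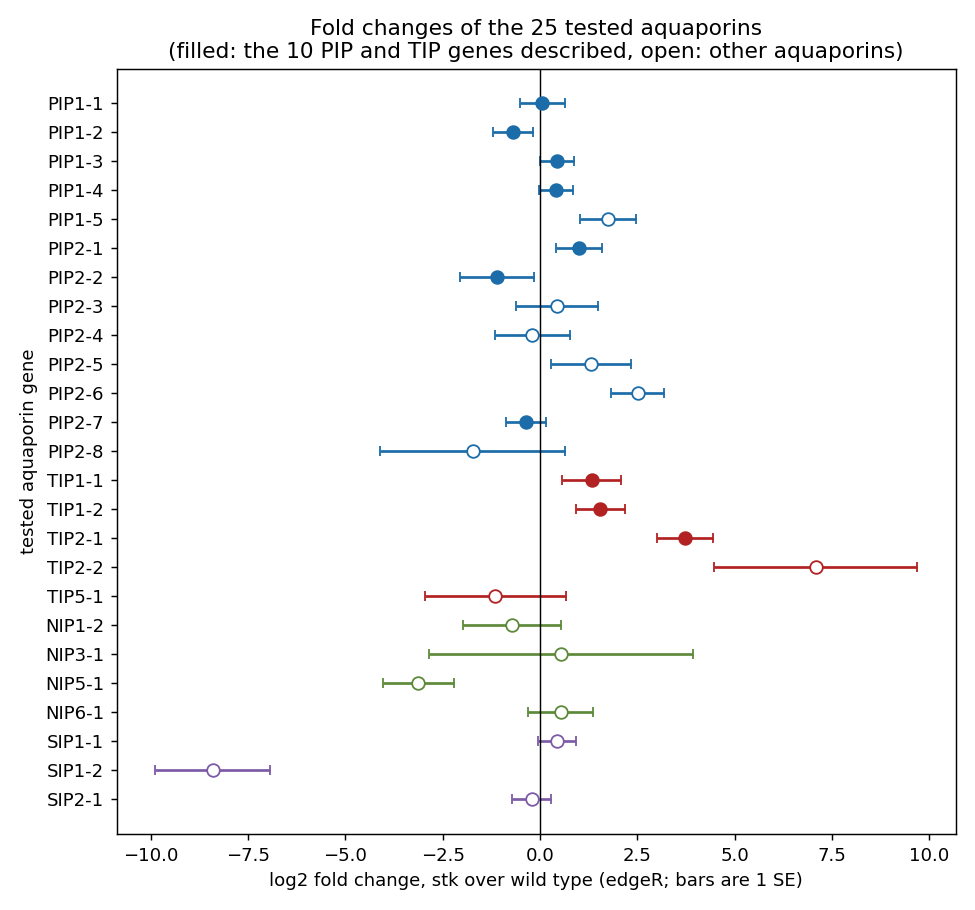
Log2 fold change (stk over wild type, edgeR) with 1 SE for the 25 aquaporins that passed the filter on low counts, by subfamily. Filled marks are the 10 genes described and open marks the others. SIP1-2 lies farthest to the left at -8.41 and TIP2-2 farthest to the right at 7.09, and both had at most 1 count in a library of the lower group, so these fitted values depend on the prior count.

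Among the other PIP genes, PIP2-6 and PIP1-5 had the lowest p. PIP2-6 (AT2G39010) gave 5.2 and 14.6 CPM across wild-type replicates and 39.7 and 73.3 CPM across stk replicates, which differed by 2.50 ± 0.69 (SE) on the log2 scale (edgeR adjusted p = 0.829, unadjusted p = 0.00727). PIP1-5 (AT4G23400) gave 119.5 and 35.7 CPM across wild-type replicates and 392.0 and 128.5 CPM across stk replicates (edgeR adjusted p = 1, unadjusted p = 0.0428). In both genes the stk values were above the wild-type values, with wild-type replicate 1 and stk replicate 2 near each other in PIP1-5. PIP2-3 (AT2G37180), a desiccation-responsive gene, gave 141.2 and 7.42 CPM across wild-type replicates and 137.6 and 63.8 CPM across stk replicates. PIP2-4, PIP2-5 and PIP2-8 had means of 15.9, 13.5 and 10.2 CPM, and PIP2-8 was at 0 in replicate 1 of both genotypes. Without wild-type replicate 1 the log2 fold change was 2.88 for PIP1-5 and 3.78 for PIP2-3. Without wild-type replicate 2 it was 1.13 for PIP1-5 and -0.485 for PIP2-3. In edgeR without the filter on low counts, PIP1-5 (adjusted p = 0.0323) and PIP2-6 (adjusted p = 0.0174) passed.

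Of the other TIP genes, none reached a mean of 5 CPM. TIP2-2 (AT4G17340), the closest namesake of TIP2-1, had 0 and 1 counts in wild type and 65 and 26 in stk. Pooled over libraries this was a ratio of 93.5, with an exact 95% interval from 16.4 to 3732.7 that covers counting error only, and edgeR gave an adjusted p of 1 (unadjusted p = 0.0272). TIP5-1, a pollen gene, gave 8.43 and 4.94 CPM across wild-type replicates and 1.03 and 4.92 CPM across stk replicates. The other pollen TIP, TIP1-3, had 11 and 9 counts in wild type and 0 in both stk libraries. TIP3-1, which marks protein storage vacuoles of seeds, had 7 counts in wild-type replicate 2 and 21 in stk replicate 1 alone, and TIP3-2 had 0 in every library.

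SIP1-2 and NIP5-1 lay lower in stk. SIP1-2 (AT5G18290), of the small basic intrinsic proteins of the endoplasmic reticulum, had 140 and 267 counts in wild type and 0 and 1 in stk. The wild-type levels were even, at 25.1 and 24.4 CPM, and the pooled ratio of wild type to stk was 396.2 (exact 95% interval 70.7 to 15685.4, counting error only). It did not pass edgeR (adjusted p = 0.329, unadjusted p = 0.000544) and passed DESeq2 (adjusted p = 8.88e-05) and edgeR without the filter (adjusted p = 0.00114). NIP5-1 (AT4G10380), a boric acid channel, gave 55.6 and 15.4 CPM across wild-type replicates and 3.10 and 4.92 CPM across stk replicates (edgeR adjusted p = 0.891, unadjusted p = 0.00982). NIP6-1 (AT1G80760), a boric acid channel of the phloem in shoots, gave 187.0 and 23.5 CPM across wild-type replicates and 194.1 and 109.1 CPM across stk replicates. It passed without wild-type replicate 1 (log2 fold change 2.704, edgeR adjusted p = 0.021). NIP1-2, SIP1-1 and SIP2-1 had means of 9.18, 65.5 and 47.7 CPM.

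Markers of other tissues that a funiculus sample can hold also differed between libraries. All 7 xylem markers, all 5 phloem markers and all 8 markers of green tissue were read in every library. The xylem markers summed to 241.2 and 74.1 CPM across wild-type replicates and to 1599.6 and 202.3 CPM across stk replicates. Their fold changes were positive for 6 of 7, against 45.8% of all tested genes. At an unadjusted edgeR p under 0.05, 4 of 7 were higher in stk and 0 were lower, against 2.22% and 1.14% of all tested genes. Both stk values were above both wild-type values for 3, CESA8, IRX9 and FLA11, against 15.9% of all tested genes. The xylem sums overlapped between the genotypes, with stk replicate 1 the highest and wild-type replicate 2 the lowest.

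The phloem markers summed to 2162.9 and 498.8 CPM across wild-type replicates and to 1980.8 and 925.9 CPM across stk replicates. Of the 5, both genes of sieve element proteins lay above wild type in both stk libraries, as did 15.9% of all tested genes. SEOR1 gave 2.69 and 4.94 CPM against 70.7 and 48.2 CPM in stk (DESeq2 adjusted p = 4.64e-05), and SEOa gave 37.1 and 28.4 CPM against 174.5 and 90.2 CPM (DESeq2 adjusted p = 0.049). SUC2, APL and PP2-A1, which mark companion cells and phloem identity, overlapped between the genotypes. Of the xylem markers DESeq2 called FLA11 (adjusted p = 0.0106), while edgeR called 0 in both lists. Over all tested genes DESeq2 called 0.884% and edgeR 0.00553%.

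The green tissue markers summed to 10523.6 and 4503.4 CPM across wild-type replicates and to 7556.3 and 7334.1 CPM across stk replicates. Of their 8 fold changes 5 were positive, against 45.8% of all tested genes. Embryo storage markers summed to 258.8 and 1.28 CPM across wild-type replicates and to 85.7 and 1.48 CPM across stk replicates. OLEO3 was at 0 in every library, and 3, 5, 1 and 7 of the 9 genes were at 0 in wild-type replicates 1 and 2 and stk replicates 1 and 2. Seed coat markers summed to between 7.60 and 20.8 CPM in the 4 libraries, with TT10 at 0 in wild type and BAN, DFR, TT12 and TT19 at 0 in stk replicate 1. The part of these tissues in the aquaporin values was not tested.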

How the data were processed

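Polyadenylated RNA of funiculi was sequenced in 4 libraries, 2 per genotype. Raw read counts for each locus were deposited as a table of 1 column per library. The submitters' processing notes list STAR 2.7.0, Trimmomatic 0.38, DESeq2 1.38.3, featureCounts 1.6.3 and an R version of 1.30.1, without saying what each did. Not given in the sources used here are the build, gene models and strandedness behind the counting, and how reads that fit several genes were treated. Each of the 37051 loci matched a locus tag of the RefSeq annotation on TAIR10.1, which supplied sequences, coordinates and exon lengths (the union of annotated exons).

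The counts were tested over the whole table with edgeR 4.0.16 (quasi-likelihood test, TMM scaling, filterByExpr, genotype as the single term, Benjamini-Hochberg threshold of 0.05) in R 4.3.3. Standard errors were derived from the F statistic. DESeq2 1.42.0, on the same filtered loci, and limma-voom (limma 3.58.1) were alternatives, as were other scalings and filters, a replicate block and the omission of each library. Named were the 10 genes, other aquaporins with a mean of at least 5 CPM or an unadjusted p under 0.05, and the 3 genes with the lowest p of the regulator and pump lists. Members and lists were chosen with earlier results of these data known. TIP5-1, TIP1-3, TIP3-1, TIP3-2, RGF9, the opposite-strand loci and, in the closing part, AVP1, SYP121 and TSPO fall outside that rule and were named after their values were seen. P-values of the gene tests weigh the genotype difference against the spread between these samples. In the edgeR fit without the filter on low counts, each gene's own spread weighed less. Fits with a library left out have a genotype without replicates, so their fold changes are read and their p-values and calls are not. Intervals and floors cover counting error only.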

Additional observations from a re-analysis of the deposited data

How the results depend on the processing

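With 2 libraries per genotype, no permutation test over samples could reach the threshold. The direction of the fold change of the 10 genes held in 107 of 115 alternative values. With a library left out, the log2 fold change lay between -0.55 and 1.19 for PIP1-1, between -0.043 and 0.82 for PIP1-3, between -0.002 and 0.75 for PIP1-4, between -2.09 and 1.28 for PIP2-2, and between -0.89 and 0.28 for PIP2-7. Of the other aquaporins, the range included 0 for PIP2-3 (-0.48 to 3.78), PIP2-4 (-1.67 to 0.52), PIP2-8 (-9.75 to 8.10), NIP1-2 (-1.38 to 0.56), NIP6-1 (-0.30 to 2.704) and SIP2-1 (-0.72 to 0.17). Outside those fits the direction turned in PIP2-2 (0.12) and NIP1-2 (0.045) with limma-voom, in PIP1-1 with the counts of PIP1-2 added (-0.51) and in PIP2-3 with those of PIP2-2 added (-0.12). The log2 ratio of the summed PIP genes was 0.24 if PIP1-2 was omitted and lay between -0.38 and 0.29 with a library left out. That of the summed TIP genes lay between 1.32 and 2.49, the difference in PIP share between -7.40 and -4.88 percentage points, and the median log2 fold change of the 10 genes between 0.014 and 1.15.

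Counts of calls moved with the setting, and the cause was not tested. Those with a library left out come from fits in which a genotype has no replicates, and they are not read as evidence. Of the 10 genes, 1 was called with DESeq2, 1 without the filter and 1 with the replicate block, and between 0 and 2 with a library left out. Of the other 25, 1 was called with DESeq2, 3 without the filter and 2 with the replicate block, and between 0 and 3 with a library left out. Over all genes 160 were called with DESeq2, 37 with limma-voom, 275 without the filter, 0 among genes whose mean was 5 CPM or more (567 of these had an unadjusted p under 0.05), and 169 with the replicate block, and between 5 and 198 with a library left out. The replicate numbers are not stated to mark a shared batch, so the edgeR fit used above has no replicate term. The differences between replicates 1 and 2 correlated between the genotypes with r = 0.245 across 18092 genes. Across the 10 genes r was -0.175. The order of replicates 1 and 2 was the same in both genotypes for 58.9% of tested genes. Whether samples with the same replicate number share a source was not tested. With the block, the log2 fold change of TIP2-1 was 3.45 (edgeR adjusted p = 0.00887), that of PIP1-5 was 1.78 (adjusted p = 0.0248) and that of SIP1-2 was -8.47 (adjusted p = 0.0313).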

Other observations

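Proton pumps energise the membranes that aquaporins sit in. Of 8 tested, 0 were called by edgeR, DESeq2 and limma-voom, which called 0.00553%, 0.884% and 0.205% of all tested genes. The median log2 fold change of the 8 was 0.06. At an unadjusted p under 0.05 there were 0 of 8 in edgeR, against 608 of 18092 tested genes. In DESeq2 there was 1 (against 855) and in limma-voom 1 (against 735), in both cases AHA1. The 3 with the lowest p were AHA1, a plasma membrane proton pump, AHA2, a close relative of it, and VHA-A2, a subunit of the vacuolar pump. AHA1 gave 934.6 and 769.1 CPM across wild-type replicates and 545.1 and 439.6 CPM across stk replicates, with both stk values below both wild-type values (log2 fold change -0.79 ± 0.40, SE; edgeR adjusted p = 1). AHA2 gave 51.7 and 29.5 CPM across wild-type replicates and 12.9 and 30.9 CPM across stk replicates. VHA-A2 gave 64.4 and 58.2 CPM across wild-type replicates and 114.8 and 70.0 CPM across stk replicates. The vacuolar pyrophosphatase AVP1, not picked by its p, gave 1049.8 and 613.6 CPM across wild-type replicates and 982.5 and 633.2 CPM across stk replicates.

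Of the regulators known to act on aquaporin traffic, turnover or gating, 7 were tested. The tools edgeR, DESeq2 and limma-voom called 0 of these, and 0.00553%, 0.884% and 0.205% of all tested genes. In these tools 608, 855 and 735 of 18092 tested genes had an unadjusted p under 0.05, and 0 of the 7 regulators did. The lowest p belonged to OST1, a kinase that phosphorylates PIP2-1 in guard cells, at 25.3 and 10.1 CPM in wild type and 28.1 and 35.3 CPM in stk (edgeR adjusted p = 1). Next came the RING ligase gene RMA3, at 13.8 and 5.04 CPM in wild type and 0 and 4.02 CPM in stk, and the receptor kinase gene SIRK1, at 16.7 and 32.8 CPM in wild type and 40.3 and 31.9 CPM in stk. SYP121, the syntaxin that takes part in PIP2-7 delivery, was singled out once its level was known and was even, at 170.3 and 171.0 CPM in wild type and 154.1 and 171.3 CPM in stk. TSPO, which directs PIP2-7 to degradation, had 3 counts in wild-type replicate 2 and 0 in the other libraries.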
